A study of Mus musculus with 12 samples.

Results

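The 747 regions described here are 500 bp tiles of the mouse genome that lie at the ends of protein-coding genes and whose mean methylation in the heart was above 80%. They were chosen from a table of CpG methylation in the left ventricle, the main pumping chamber, of 12 wild-type FVB/N offspring. A tile was kept when it was autosomal, held at least 3 sites with a value in all 12 samples, had any site within 1 kb of either end of a protein-coding gene and had a mean over the 12 samples above 80%. This left 747 of 12484 gene-end tiles (5.98%) and of 38449 tiles in all (1.94%), with 3937 sites and 767 genes of the 9203 that had any gene-end tile. The mean level chose the members, so the levels below are a description. The diets, the sexes, the position relative to the direction of transcription and the reference sequence were not used by the choice.

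The mothers ate either chow, the regular diet (RD), or a high-fat diet (HFD) that began when they were 6 weeks old, were mated after 8 weeks to RD-fed males and stayed on their food. All offspring were sampled at 3 weeks of age, the age of weaning, from which point offspring in the study received RD. There were 3 daughters and 3 sons of HFD mothers and 4 daughters and 2 sons of RD mothers. The labels do not say how many mothers these came from, so p-values measure the spread between these samples, which may share mothers. The HFD libraries carry the numbers 2 to 8 and the RD libraries 9 to 14, so diet and library order cannot be told apart. Samples had values at 385299 to 417081 sites, fewest in HFD male 4. The values are percentages with no read counts beside them, so the depth behind each site is unknown and no counting interval can be given. The DNA came from whole tissue, so the share of cells of a type and the level in each cell cannot be told apart.

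In mammals, methylation is found mainly at CpG, a cytosine followed by a guanine, where DNMT3A and DNMT3B set it and DNMT1 copies it at each cell division. Most of the genome, gene bodies included, is heavily methylated in somatic tissue, whereas CpG-rich promoters are mostly free of it. A known exception are promoters of germline genes, which are methylated in the early embryo and stay silent in somatic cells. Reduced representation bisulfite sequencing (RRBS) cuts DNA at CCGG, reads the short fragments after bisulfite treatment, and therefore samples CpG-rich DNA far more densely than the rest.

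The tiles carried their label only in part. Their means ran from 80.1 to 97.8%, with a median of 90.3% and quartiles of 86.4 and 93.6%. In all, 394 were above 90% and 93 above 95%. Just inside the threshold, 21 members lay between 80 and 81%, and just outside it 13 gene-end tiles lay between 79 and 80%, the highest at 79.99%. A member held 3 to 30 sites, with a median of 4; 260 had 3 sites only and 67 had 10 or more. The median distance from the first to the last site was 70 bp, so most members are short clusters of CpGs and not whole tiles. Of the 3937 single sites, 388 (9.86%) had a mean under 80% and 12 a mean under 50%, and 488 of the 747 members had every site above 80%. At 53 places 2 listed sites were 1 bp apart, and their median difference was 1.55 points. The letters there were not read, so these need not be the 2 cytosines of 1 CpG.

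Some of these tiles reach into the 250 bases before a transcription start, where the reference sequence can be shown. The 3 promoters with the most measured sites in member tiles are printed 5′ to 3′ on the strand of the gene, up to the last base before the start, from the RefSeq promoter table of GRCm38.p6, with the measured CpGs in capitals. Tex101, a cell-surface protein of germ cells, has its promoter at chr7:24672051-24672300 on the minus strand. Slc30a3, a zinc transporter of neurons, has its promoter at chr5:31108245-31108494 on the minus strand, in a tile that is also close to the start of Dnajc5g. Mfsd4b5, a membrane transporter of the major facilitator family, has its promoter at chr10:39986647-39986896 on the minus strand.
Tex101: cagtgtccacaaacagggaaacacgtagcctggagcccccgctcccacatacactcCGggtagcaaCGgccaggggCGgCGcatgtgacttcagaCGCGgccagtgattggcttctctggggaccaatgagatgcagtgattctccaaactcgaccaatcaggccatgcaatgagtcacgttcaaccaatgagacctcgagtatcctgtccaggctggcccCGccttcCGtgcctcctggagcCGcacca
Slc30a3: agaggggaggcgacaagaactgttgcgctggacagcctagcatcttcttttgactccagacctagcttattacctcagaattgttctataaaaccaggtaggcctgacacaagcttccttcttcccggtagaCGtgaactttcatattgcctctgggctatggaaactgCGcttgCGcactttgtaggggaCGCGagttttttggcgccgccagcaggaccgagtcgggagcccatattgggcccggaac
Mfsd4b5: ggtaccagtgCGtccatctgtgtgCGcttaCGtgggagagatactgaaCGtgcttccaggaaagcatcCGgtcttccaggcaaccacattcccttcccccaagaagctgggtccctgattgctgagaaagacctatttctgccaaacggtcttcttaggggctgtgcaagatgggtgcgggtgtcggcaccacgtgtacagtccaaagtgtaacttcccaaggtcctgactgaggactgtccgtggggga

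In the Tex101 promoter 9 of 14 CpGs were measured, and their site means were 85.6 to 96.2% with a median of 91.7%. They lay 6 to 28 bp and 153 to 194 bp before the start, and both of these groups were highly methylated. In Slc30a3 the 5 measured CpGs of 13 lay 57 to 118 bp before the start and had site means of 88.3 to 95.4%. Its samples ranged from 85.0 to 95.2% in HFD and from 76.0 to 100% in RD. In Mfsd4b5 the 5 measured CpGs of 10 lay 181 to 239 bp before the start and ranged from 68.9 to 94.8%. The CpGs nearest the Mfsd4b5 start were not among the measured ones.

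Few promoters held sites of member tiles. Only 21 promoters, of 20 genes, had a measured site of a member tile in the 250 bases before their start, against 2512 promoters with a site of a gene-end tile under 20%. The median number of CpGs in these 250 bases was 9 for the former, 20 for the latter and 10 for all 20055 promoters of autosomal protein-coding genes in the table. The ratio of observed to expected CpGs had medians of 0.556, 0.801 and 0.547. The letters of these 21 promoters were thus close to those of the average promoter in CpG content and GC content (57.6% against 56.0%). The promoters with low-tile sites stood apart from both with 64.0% GC. A single measured site put a promoter in the first set. Jade1 and Dazl were in it through 1 site each, among 16 and 20 CpGs of their 250 bases. CACGTG, the E-box bound among others by MAX and MGA, was found on either strand in 5 of 21 (23.8%), 9.39% and 6.69% of the 3 sets. TCCCGC, the core of the E2F6 site, was found in 3 of 21 (14.3%), 37.1% and 22.2%, and TGACGTCA, the full CRE motif, in 0 of 21, 2.99% and 1.98%. With 21 promoters these counts are a description, and a match is not shown to be a site.

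The members lay mainly at the downstream ends of genes. Of tiles close to 3′ ends only, 420 of 963 (43.6%) were members, and of tiles close to 5′ ends only, 141 of 8289 (1.70%). The 5′ tiles were under 20% in 93.9% of cases, the 3′ tiles in 27.3%. Of the 561 members close to 1 kind of end, 74.9% were therefore 3′, although far more 5′ tiles were measured. A further 32 members were close to both kinds of end and 154 were close to a gene whose strand is not in the table used. The 3′ share was 67.8% when sites had to lie within 500 bp of the end and 80.1% for members above 90%. Of the 3′ members, 320 were centred before the end of the gene and 100 past it. Of the 5′ members, 99 were centred downstream of the start and 42 upstream. More tiles of any level were measured on the gene side of both ends, so these counts do not show a preference of members. The 250 bp bins beside the start held 1108 tiles upstream and 2408 downstream. Those beside the 3′ end held 74 before it and 47 past it.

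**Figure D1:**
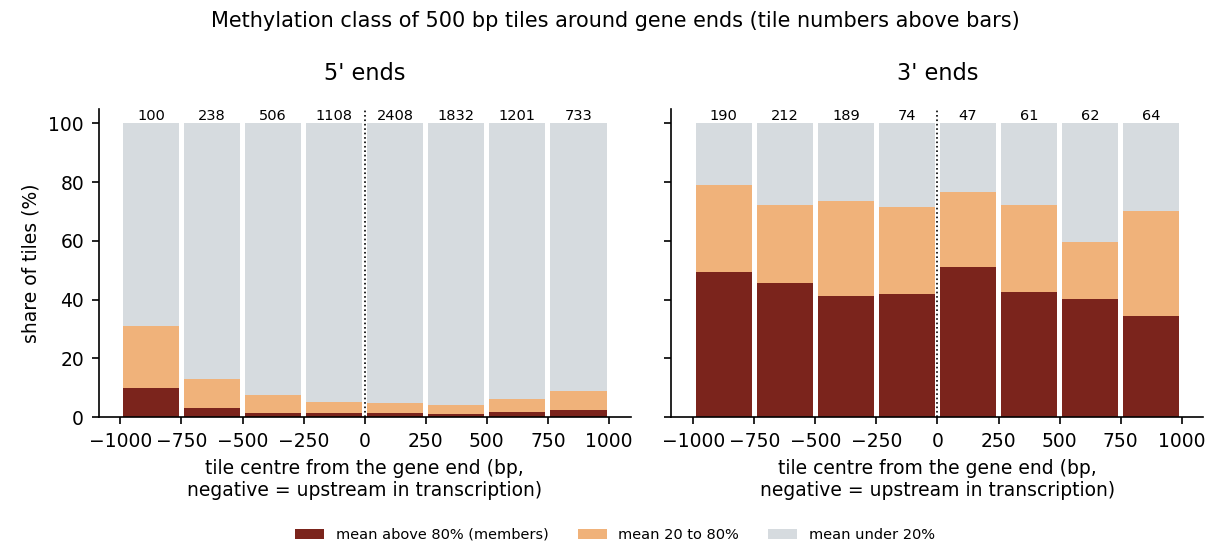
Share of 500 bp tiles (%) in 3 classes of mean methylation, by distance in bp of the tile centre from the closest gene end in the direction of transcription; left, tiles near 5′ ends only, right, tiles near 3′ ends only, with tile numbers above the bars. Members made up at most 10 of 100 tiles in a bin around 5′ ends and 34.4 to 51.1% of the tiles in each bin around 3′ ends.

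Around the start the share of members was lowest from 500 bp upstream to 500 bp downstream, at 1.38, 1.26, 1.495 and 1.20% in the 4 bins of 250 bp. It was 10 of 100 tiles between 1000 and 750 bp upstream, the farthest bin. Around 3′ ends the share was 41.9% in the last 250 bp of the gene, 51.1% in the first 250 bp past it and lowest, at 34.4%, between 750 and 1000 bp past it.

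The same gene could carry both states. A 3′ member was found for 480 genes, of which 249 also had a 5′ tile. In 217 of the 249 at least 1 of the 5′ tiles was under 20%, in 211 all of them were, and in 27 a 5′ tile was itself a member. For some of the 27, such as H1f7 and Tnp1, this was the same tile, close to both ends of a short gene. Of all 9203 genes with a gene-end tile, 8218 had a tile under 20% at either end. Zfpm1, the cofactor FOG1 of GATA factors, had the member with the most sites: 30 sites at chromosome 8, 122336671 to 122336973, with a mean of 87.8%. Its lowest, median and highest samples were 82.5, 88.0 and 90.7% in HFD and 86.8, 88.2 and 89.5% in RD, so the diets overlapped. Its 5′ tiles were at 2.71% (25 sites) and 0.861% (3 sites). Hcn2, a pacemaker ion channel, shared a 3′ member of 27 sites with Polrmt, the mitochondrial RNA polymerase, at chromosome 10, 79735263 to 79735434. That tile averaged 82.6%, with samples from 71.2 to 93.5%, and the 5′ tiles of Hcn2 averaged 10.2% and 1.18%. Grasp, a scaffold protein of glutamate receptors, had a 3′ member of 22 sites at chromosome 15, 101231596 to 101231851, with 86.5%, and a 5′ tile of 0.589%. Nfkb2, an NF-kappaB subunit, and Psd, an exchange factor for ARF6, shared a 3′ member of 18 sites at chromosome 19, 46312571 to 46312945, with 91.4%.

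For 167 members a directly adjoining tile was measured, on both sides for 13 of them, 176 different tiles in all. Of these tiles, 125 were above 80%, 44 between 20 and 80% and 7 under 20%. Fam50b, an autosomal relative of the X-linked Fam50a, had 3 members in a row on chromosome 13 with 93.3%, 86.9% and 93.8% over 11, 18 and 3 sites. Tmem267, a membrane protein, had 27 sites close to its start at chromosome 13, 119488686 to 119488984, with 82.2%, between tiles of 44.8% (31 sites) and 87.6% (8 sites). The steepest borders were in Layn, a hyaluronan receptor (95.8% beside 1.20%), Fzd9, a WNT receptor (94.4% beside 6.67%), Tst, the enzyme rhodanese (89.5% beside 7.37%), and Rnf44, a RING finger protein (81.4% beside 3.22%). In Igfals, which carries IGFs in blood, a member at 88.8% adjoined a tile at 15.2%, and in Hcar1, the lactate receptor, 95.4% stood beside 19.2%. The last of the 7 was Pstpip2, an adaptor of the cytoskeleton, with 80.4% beside 10.6%. These 7 were named because of these values.

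Of 6713 genes with a 5′ tile, 168 (2.50%) had a 5′ member, and in 136 of them every measured 5′ tile was a member. In 16 a low tile was also found at the same end.

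Of 20 germline genes with any gene-end tile, 11 had a member, against 8.33% of all genes, and of the 17 with a 5′ tile, 10 had a 5′ member. This list was put together with earlier results of these data known, so its count is a description. Dazl, an RNA-binding protein of germ cells, had 2 adjoining members at its start on chromosome 17. The one at 50293551 to 50293621 held 11 sites, and its lowest, median and highest levels were 92.1, 94.7 and 96.6% in HFD and 91.7, 97.0 and 97.6% in RD. The other, at 50293386 to 50293441, averaged 93.1% over 5 sites. Tex14, needed for intercellular bridges of germ cells, averaged 95.9% over 6 sites at chromosome 11, 87405094 to 87405276, a tile that also lies at the start of Rad51c, a recombination protein. Sohlh2, a transcription factor of early germ cells, had 5′ members of 95.2% and 81.9%. Brdt, the testis bromodomain protein, averaged 91.8%, and Tnp1, a transition protein of spermatids, 94.0%.

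Further members of this list were Tex101 (89.9%, 11 sites), Slc25a31, the ADP/ATP carrier of sperm (85.7%, 17 sites), Meioc, a meiosis regulator (86.0%, 3 sites), Tuba3b, a testis alpha-tubulin (83.1%), and Adad1, an RNA-binding protein of spermatids (82.5%). Some of these starts also held less methylated tiles: in Meioc 8 sites averaged 43.8%, in Tex101 4 sites 77.8% and in Slc25a31 16 sites 77.9%. Rpl10l, a ribosomal protein of testis, had members of 93.9% and 91.3% over 14 and 9 sites, which lie close to both ends of the gene. The other 9 genes had no member: their gene-end tiles lay between 20 and 80% in all but Tex15, whose tiles were under 20%. Thus Ddx4, an RNA helicase of germ cells, averaged 75.1% at its start over 15 sites and Smc1b, a meiotic cohesin subunit, 59.0% over 20 sites.

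**Figure D2:**
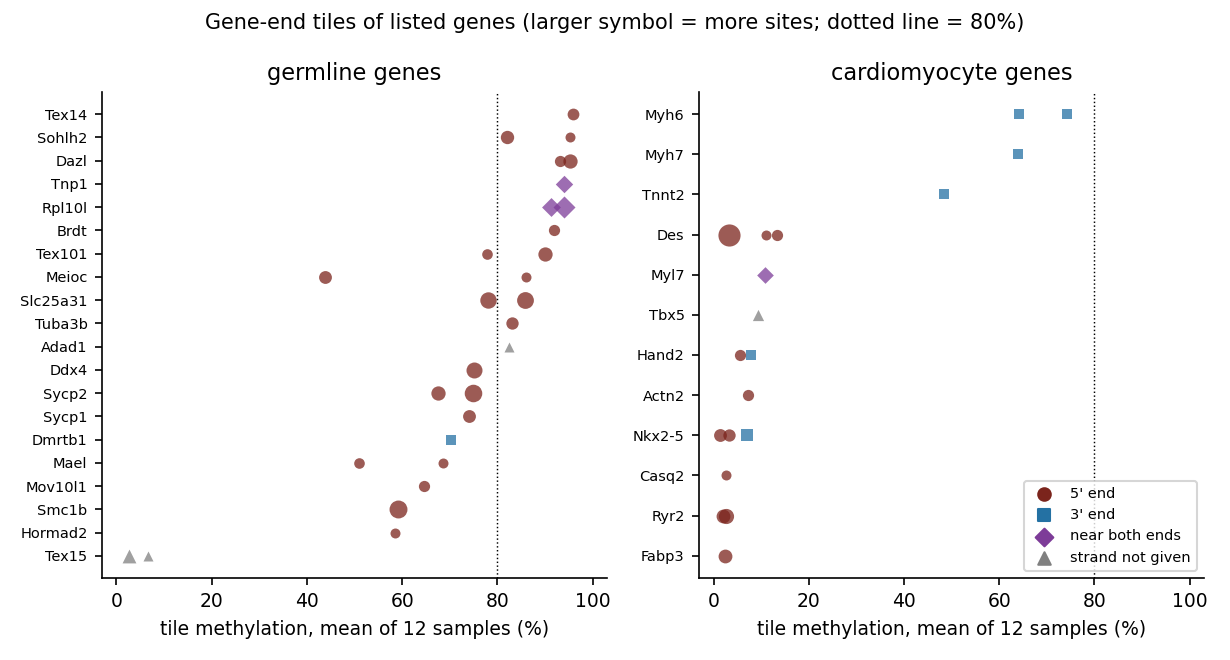
Mean methylation over 12 samples (%) of each gene-end tile of the germline genes (left) and cardiomyocyte genes (right), with symbols for the kind of end, symbol size for the number of sites and a dotted line at 80%. In the left panel 11 of 20 genes have a tile past the line, in the right panel 0 of 12, with the highest tile at 74.3%.

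Cardiomyocyte genes had no member. The 12 genes with a measured tile had 19 tiles, at 1.41 to 74.3%. Des, the intermediate filament protein desmin, was at 3.28% in the tile with the most sites, and Ryr2, the cardiac calcium release channel, at 1.89 and 2.52%. The highest were 3′ tiles of the myosin heavy chains Myh6 (74.3% and 64.2%) and Myh7 (63.8%). Endothelial genes likewise had 0 members among 8 genes. Of genes that mark other tissues, 3 of 5 leukocyte genes had a member, 3 of 7 liver genes, 2 of 7 keratinocyte genes, 2 of 6 skeletal muscle genes, 2 of 7 erythroid genes, 1 of 5 fibroblast and mural genes, 1 of 10 epithelial genes and 1 of 20 neuronal genes. The share over all protein-coding genes was 8.33%. A tile under 20% was found for 10 of the 10 epithelial genes, 5 of the 5 fibroblast and mural genes, 16 of the 20 neuronal genes, 7 of the 8 endothelial genes, 4 of the 6 skeletal muscle genes, 4 of the 7 erythroid genes, 3 of the 7 keratinocyte genes, 2 of the 5 leukocyte genes and 1 of the 7 liver genes. Such a tile was found for 9 of the 12 cardiomyocyte genes and for 8218 of all 9203 protein-coding genes with a gene-end tile. With so few genes measured per list, these counts are a description and their differences were not tested.

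The members in these lists lay at both ends. Among leukocyte genes, the start of Cd5, a T cell receptor inhibitor, averaged 95.2%, the tile of Cd6, another T cell surface protein, 86.7%, and the 3′ tiles of Zap70, a T cell kinase, 83.8% and 81.8%. Among liver genes, F2 (prothrombin) averaged 87.9% and Fgb (fibrinogen beta) 82.8% at the start, and F7 (coagulation factor VII) 92.2% at the 3′ end. Gfap, the filament protein of astrocytes, averaged 85.8% over 13 sites at its start and 90.2% at its 3′ end, in a tile shared with Fam187a. Tnnc2, troponin C of fast muscle, averaged 83.9% over 12 sites at its 3′ end, and Actn3, alpha-actinin of fast fibres, 91.1% in a tile that is also close to the 3′ end of Ctsf, a cathepsin. Krt79, a skin keratin, averaged 84.6% at its start, and Flg, the epidermal protein filaggrin, 96.0% at its 3′ end. Epcam, an epithelial adhesion protein, had 3′ members of 82.8% and 89.7% and a tile of 15 sites at its start at 3.75%, Thy1, a surface protein of fibroblasts, T cells and neurons, a member of 82.0%, Rhd, a red cell membrane protein, 96.7%, and Hba-x, an embryonic globin, 80.2%.

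Among families defined by their symbols, 17 of 178 Zfp genes (9.55%), 18 of 186 solute carriers (9.68%), 4 of 19 keratins, 4 of 10 serine proteases, 3 of 11 olfactory receptors and 2 of 3 vomeronasal receptors had a member, against 8.33% of all genes. The Zfp and solute carrier shares were thus close to that of all genes. Of the 17 Zfp genes 12 had it at the 3′ end, 1 at the 5′ end, and for the rest the strand was not given. Over all genes 480 had a 3′ member and 168 a 5′ member. Zfp647 averaged 96.7% over 12 sites, Zfp688 93.6% and Zfp341 90.7% over 11 sites each. Histones had 1 of 28, H1f7, the linker histone of spermatids, at 87.6% over 14 sites, and collagens 1 of 18, Col6a2, with 3′ members of 90.8% and 93.2%. Beside Slc25a31 and Slc30a3 (91.9%), the solute carriers included Slc16a10, an amino acid transporter, at 81.6%, and Slc15a3, a peptide transporter, at 95.8% in a tile shared with Tmem132a. The remaining named members included the keratins Krt83 (93.8%), Krt42 (84.7%) and Krt4 (92.5% and 82.5%). Also among them were Klk15 (87.5%), Prss39 (83.4%), Prss42 (89.6%) and Prss54 (84.7%, shared with Ccdc113). The last were Olfr1254 (92.8%), Olfr284 (91.7%) and Olfr281 (89.0%), and Vmn2r92 (89.3%) and Vmn1r65 (81.5%). Prss and Klk genes belong by symbol to the serine protease family, and Olfr and Vmn genes encode odour and pheromone receptors.

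D1Pas1, an autosomal relative of the X-linked helicase Ddx3x, had 23 sites at chromosome 1, 186968011 to 186968268, with 86.0%. The next 4 genes were picked after their values were seen, from no list and with no count of like genes that had no member. Pdha2, the testis form of a pyruvate dehydrogenase subunit, averaged 89.3% over 6 sites. Naa11, the testis form of an N-terminal acetyltransferase, averaged 94.3%, and Tssk1, a testis kinase, 90.04%. Papolb, the testis poly(A) polymerase, averaged 80.4% beside a tile of 57.1%. Whether reads of a near-identical copy were counted in these tiles was not tested.

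Single sites inside a member could depart from the rest of it. In 12 members 1 site had a mean under 50%, and for 6 of these sites the level was under 5% in each of the 12 samples. In the Sohlh2 tile of 9 sites, the site at position 55182643 was at 0% in every sample while the other 8 averaged 78.9 to 96.0%. Without it the tile averaged 92.2% in place of 81.9%. In the Tuba3b tile of 7 sites, position 145615977 was at 0% in every sample and the others averaged 95.6 to 98.5%. The reference letters at this position are not a CpG in GRCm38.p6, which was so for 2 of the deposited positions inside promoter windows. The others there fell on the C of a CpG in 15154 cases and on its G in 16187.

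Low single sites were also found in Tmem267 at 0.231% among 26 sites of 79.1 to 88.6%, in Vps18, an endosomal sorting protein, at 0.278%, in Cplane2, a ciliogenesis protein, at 0.329%, and in Kin, a DNA-binding protein, at 0.786%. In D1Pas1 the site at 186968134 averaged 2.21% with at most 6.67% in a sample. The other 5 were at 28.4 to 48.6% and varied more between samples. Letters for these sites lie outside the promoter windows and were not examined. With thresholds applied to tile means, such a site lowers a short tile by several points: the Tuba3b tile moved from 83.1 to 96.9% without it.

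**Figure D3:**
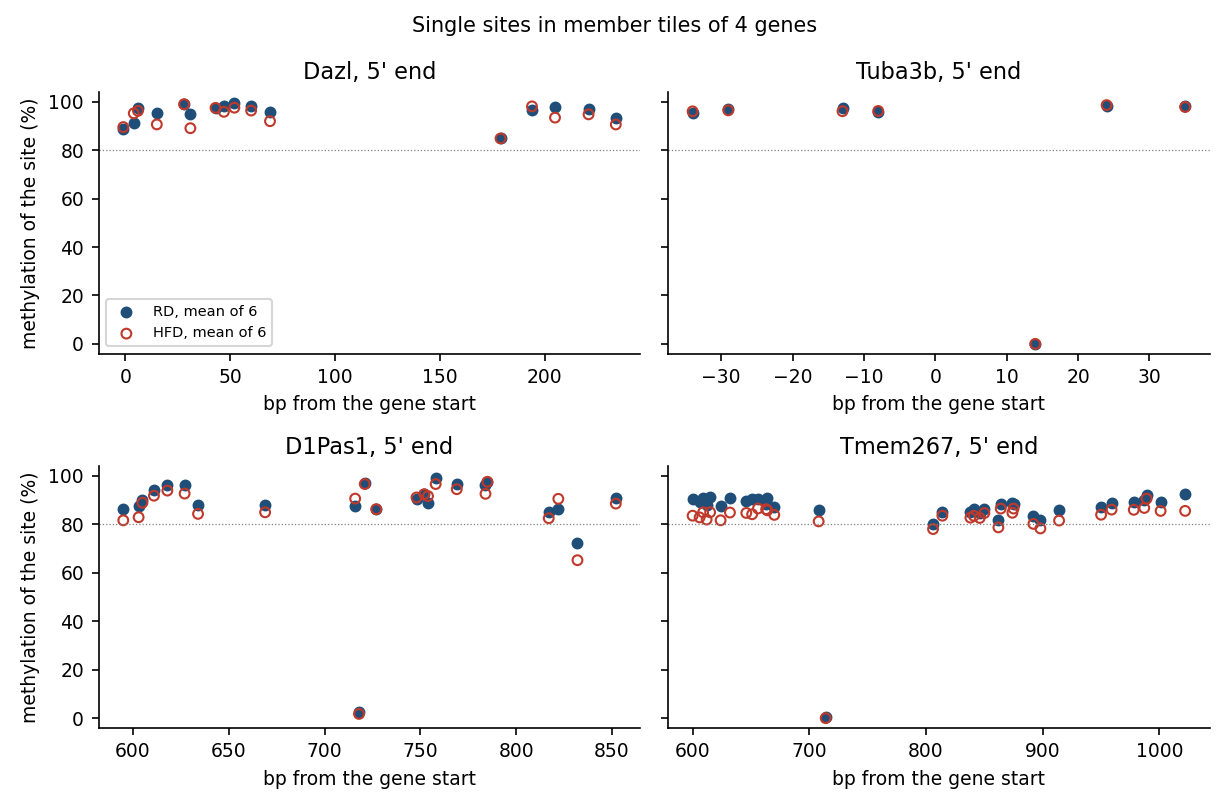
Methylation of single sites (%) against distance in bp from the gene start in member tiles of Dazl, Tuba3b, D1Pas1 and Tmem267, as means of the 6 RD samples (filled) and the 6 HFD samples (open), with a dotted line at 80%. All Dazl sites are above 80%, whereas Tuba3b, D1Pas1 and Tmem267 each hold 1 site under 5% among highly methylated ones.

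The SD within the 4 groups had a median of 2.53 points in members. It was 2.51 points in the 6798 tiles above 80% inside genes and away from their ends, 4.79 points in the 892 gene-end tiles between 20 and 80%, 1.36 points in gene-end tiles under 20%, and 3.37 points in all tiles tested. The spread was not compared at matched levels. The largest spread was in Bcl2l10, a BCL2 family protein, at chromosome 9, 75348030 to 75348093, with an SD of 9.47 points over 3 sites. Its HFD samples lay at 78.2, 83.4 and 89.6% (lowest, median and highest) and its RD samples at 56.7, 89.4 and 93.8%, so that 1 RD sample lay far below the rest. Next came Dnah7c, an axonemal dynein (SD 9.35 points), BC048403, an uncharacterised protein (8.55 points), and the tile shared by Efemp2, the matrix protein fibulin-4, and Mus81, a DNA nuclease (8.48 points). All 4 held 3 or 4 sites.

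Averaged over the 747 tiles, the HFD samples were at 89.7% ± 0.203 (SD, n = 6) and the RD samples at 89.9% ± 0.196 (SD, n = 6), a difference of -0.239 points. The samples ran from 89.3 to 89.9% in HFD and from 89.7 to 90.1% in RD, so the groups overlapped. The lowest was HFD male 4, which also had the fewest sites with a value, and the part of that in its level was not tested. The difference was -0.175 points in the highly methylated tiles inside genes and -0.281 points over the 25273 tiles with a mean of at least 5%. It was -0.118 points over all 38449 tiles and 0.250 points in gene-end tiles under 20%, where HFD was higher. In gene-end tiles between 20 and 80% it was -0.882 points, from 50.9% ± 0.500 (SD, n = 6) in RD to 50.1% ± 0.286 (SD, n = 6) in HFD, without overlap. No test was run on these means, since the members were chosen with results of these data known.

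**Figure D4:**
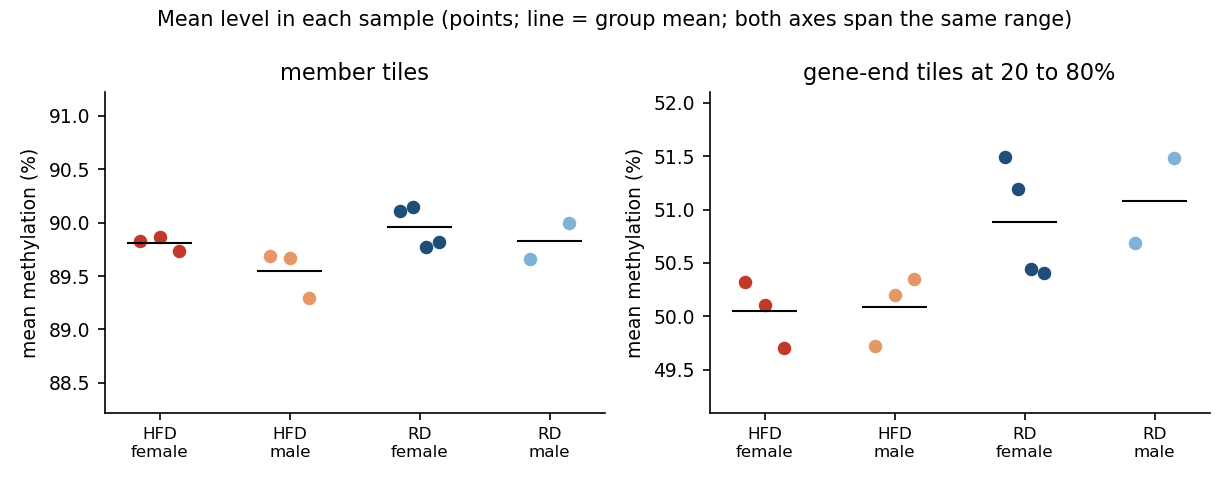
Mean methylation (%) of the 747 members (left) and of the 892 gene-end tiles between 20 and 80% (right) in each sample, by maternal diet and sex; points are samples, lines are group means, and both axes span the same range. The HFD member means lie at 89.3 to 89.9% and the RD member means at 89.7 to 90.1%, so they overlap, whereas in the right panel every RD sample, at 50.4% or more, lies above every HFD sample.

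Tile by tile, no member passed the threshold between the diets. The test was limma on the log2 ratio of methylated to unmethylated share with sex as a term, over all 25273 tiles tested with Benjamini-Hochberg adjustment and a threshold of 0.05. It called 0 of 747 members, against 0.0277% of all tiles (7 tiles), and the smallest adjusted p of a member was 0.241. At an unadjusted p under 0.05 there were 47 members (6.29%), against 7.68% of all tiles. Of these, 30 were lower in HFD, where 4.52% of all tiles were, and 17 higher, where 3.15% were. Differences in percentage points had 5th and 95th percentiles of -3.57 and 2.79 among members. In 24 (3.21%) the difference was above 5 points, against 9.02% of all tiles and 2.06% of the highly methylated tiles inside genes. In 27 members the mean of 1 diet alone was not above 80%, HFD in 16 and RD in 11, so these passed the choice through the other diet. Of the 47 members, 3 were of this kind. The HFD mean was the lower one in 399 members (53.4%), against 53.3% of all tiles. The median difference was -0.133 points in members and -0.164 points in all tiles.

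The 5 members with the smallest p-values differed in direction. The Zfp3 tile, past the 3′ end of a zinc finger gene at chromosome 11, 70773513 to 70773546, had levels of 72.9, 77.3 and 83.5% (lowest, median and highest) in HFD and 79.1, 85.2 and 90.7% in RD. The groups overlapped, and the mean was 77.5% ± 4.27 in HFD and 84.3% ± 4.41 in RD (SD, n = 6 each), a log2 difference of -0.63 (SE 0.14, limma adjusted p = 0.241). The HFD mean was under 80%, so this tile is a member only through its RD samples and its difference is not independent of the choice. Among both sexes HFD had the lower mean: daughters averaged 73.8% in HFD and 82.4% in RD, sons 81.2% and 88.1%.

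The Rassf8 tile, near an end of a gene for a RAS association domain protein, strand not given, at chromosome 6, 145821377 to 145821414, had 95.8, 97.7 and 98.1% in HFD and 88.5, 93.7 and 95.5% in RD. All HFD samples lay above all RD samples, with a log2 difference of 0.70 (SE 0.16, limma adjusted p = 0.241). The Trim29 tile, near an end of a gene for a tripartite motif protein, strand not given, at chromosome 9, 43311310 to 43311491, had 78.4, 81.03 and 83.0% in HFD and 83.9, 86.2 and 88.6% in RD. Here the groups were apart in the other direction, with means of 80.8% ± 2.04 and 86.2% ± 1.67 (SD, n = 6 each; limma adjusted p = 0.321). This tile holds 7 sites, more than the other 4 of these tiles.

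Grap2 and Cd6, both of T cell signalling, were higher in HFD in their means. In Grap2, at the 3′ end on chromosome 15, 80653345 to 80653385, the levels were 94.9, 97.2 and 98.7% in HFD and 90.1, 93.9 and 95.6% in RD (limma adjusted p = 0.327). In Cd6, at chromosome 19, 10829763 to 10829916, they were 86.3, 89.5 and 91.4% in HFD and 81.6, 84.8 and 86.6% in RD (limma adjusted p = 0.357). In Grap2 the lowest HFD sample lay below the 2 highest RD samples, and in Cd6 the lowest HFD sample lay below the highest RD sample only. The other samples of the diets were apart.

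**Figure D5:**
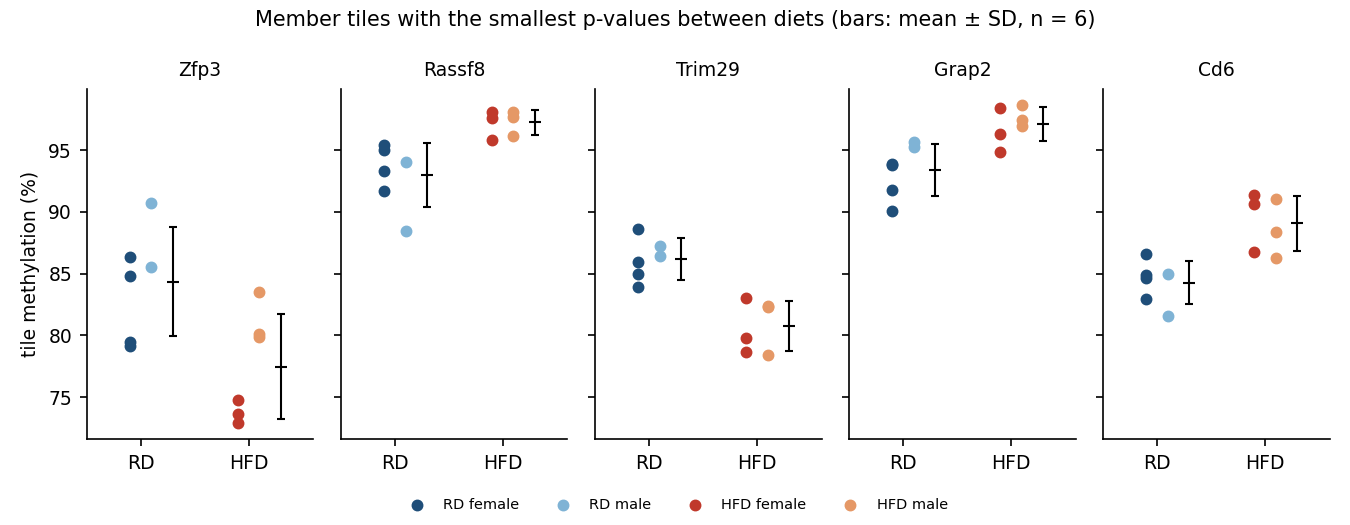
Methylation (%) of the 5 member tiles with the smallest p-values between diets, in each sample by diet and sex (points), with mean ± SD of 6 samples. HFD lies below RD in Zfp3 and Trim29 and above it in Rassf8, Grap2 and Cd6, and the diets do not overlap in Rassf8 and Trim29.

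In 4 members (0.535%) the 6 HFD samples did not overlap the 6 RD samples, against 0.613% of all tiles. Beside Rassf8 and Trim29 these were tiles of Pdha2 and of Fbxo17, an F-box protein. The 6-site Pdha2 tile had 90.3, 90.7 and 93.6% in HFD and 83.3, 88.3 and 89.6% in RD. In the adjoining 4-site member of Pdha2 the diets overlapped, with 94.4, 95.3 and 96.9% in HFD and 93.3, 94.8 and 95.9% in RD. Fbxo17 had 81.8, 93.2 and 94.5% in HFD and 94.5, 96.4 and 98.2% in RD. The largest differences, chosen for their size, came with large spread. In Gnas, the imprinted gene of the stimulatory G protein, the 5-site tile at chromosome 2, 174284865 to 174284898, had 74.4, 88.1 and 100% in HFD and 64.7, 75.8 and 82.8% in RD, a difference of 12.0 points (limma adjusted p = 0.513). With an RD mean of 75.01% it is a member only through its HFD samples. Daughters of HFD and RD mothers averaged 79.4% ± 5.25 (SD, n = 3) and 73.7% ± 7.61 (SD, n = 4) in this tile, and sons 94.8% ± 4.60 (SD, n = 3) and 77.7% ± 7.21 (SD, n = 2). In Kcnk18, a potassium channel of sensory neurons, 3 sites had 69.1, 85.1 and 92.6% in HFD and 89.7, 93.8 and 95.5% in RD, a difference of -9.52 points (limma adjusted p = 0.407). Germline members showed no common direction: the HFD mean was below the RD mean in 8 of 14 tiles, the median difference was -0.0803 points, and 0 of them had an unadjusted p under 0.05, where 53.3% and 7.68% of all tiles met these conditions and their median was -0.164 points.

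Between the sexes 0 members were called by limma with diet as a term, against 0.0158% of all tiles (4 tiles), and the smallest adjusted p was 0.745. At an unadjusted p under 0.05 there were 43 members (5.76%), against 5.54%. The smallest p-value was in Cct8l1, a relative of the chaperonin subunit Cct8, at chromosome 5, 25516171 to 25516458. Females had 83.6, 89.1 and 91.7% and males 90.5, 92.1 and 95.8% (limma adjusted p = 0.745). Fam50b, in the 11-site tile at chromosome 13, 34746579 to 34746885, had 93.6, 94.4 and 96.9% in females and 87.4, 91.7 and 92.5% in males. All females thus lay above all males, by 4.04 points in the mean (limma adjusted p = 0.784). Zfp3 came next, with 78.7% ± 5.34 in 7 females and 83.9% ± 4.48 in 5 males (SD; limma adjusted p = 0.788), and is a member only through the males.

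For the interaction of diet and sex 0 members were called, against 0% of all tiles, and 37 members (4.95%) had an unadjusted p under 0.05, against 5.14%. Without RD male 2, which leaves 1 RD son, 24 members (3.21%) did, against 4.43%. The smallest p-value was in Zdbf2, an imprinted gene, in a 5′ tile of 6 sites at chromosome 1, 63200437 to 63200470. RD daughters were at 99.3% ± 0.982 (n = 4) and HFD daughters at 90.9% ± 4.89 (n = 3), whereas RD sons were at 90.8% ± 0.726 (n = 2) and HFD sons at 93.7% ± 1.35 (n = 3), as mean ± SD (limma adjusted p = 0.925). The second was Capzb, the beta subunit of the actin capping protein, in a 3′ tile at chromosome 4, 139291042 to 139291113, with 85.7 and 87.8% in RD and HFD daughters and 90.9 and 81.2% in sons (limma adjusted p = 0.928). A test that calls no tile does not show that diet or sex leaves these regions unaltered.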

How the data were processed

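Reduced representation bisulfite sequencing of left ventricle DNA from 12 mice gave 1 table of CpG sites. Per the submitters' processing notes, the authors used FastQC, Trim Galore, Bismark 0.19 and limma with the build mm10. The deposited values are percent methylation, 1 column per sample, used as deposited. The coverage minimum and the treatment of strands are not given in the sources used here, and the percentages carry no read counts, so the depth per site is unknown and counting error enters the spread between samples. Of 410439 autosomal sites, 306534 had values in all 12 samples, and these were averaged in consecutive 500 bp tiles, of which those holding at least 3 sites were kept.

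Gene ends came from the RefSeq gene table of GRCm38.p6, the build of mm10. It has no exons or introns, so these were not used here. Strands came from the RefSeq promoter table, which held 16457 of the 20665 autosomal protein-coding genes. Gene lists were matched by symbol.

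Tiles with a mean of at least 5% (25273) were fitted with limma 3.58.1 in R 4.3.3 on log2((rate + 0.05)/(1 - rate + 0.05)), the rate being a share from 0 to 1, with diet and sex as additive terms. The interaction came from 1 mean per group. Tests were two-sided with Benjamini-Hochberg adjustment over all tiles tested and a threshold of 0.05, and were checked on simulated data. As no member passed, the named members were the 5 with the smallest p for diet, 3 for sex and 2 for the interaction, the 6 with the most sites, the 4 with the largest SD within groups, up to 4 genes of each list with the most sites, and 3 promoters with the most sites. Other genes in the text were named after their values were seen. The members and lists were chosen with earlier results of these data known. Alternatives were another offset, untransformed rates, other limits on level, sites and samples, robust variances, a replicate block, no second factor and leaving out each sample.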

Additional observations from a re-analysis of the deposited data

Results flagged for a closer look

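Of 42 sets of 6 samples of a diet examined, 6 had a sample standing apart by Dixon's criterion, where chance gives about 1 in 20, or 2.1. In HFD male 4 the mean over all members was 89.3%, against 89.7 to 89.9% in the other HFD samples, and it had values at 385299 sites, against 406225 to 417081. The same sample had 87.4% in the 11-site Fam50b tile, against 92.1 to 94.3%. HFD female 3 had 85.2% in the Zdbf2 tile, against 92.2 to 94.8%. RD male 2 had 56.7% in the 3-site Bcl2l10 tile, against 81.03 to 93.8%. RD female 1 had 70.9% in the 4-site tile of Efemp2 and Mus81, against 93.5 to 98.1%. The Bcl2l10 and Efemp2 tiles were named for their large spread, and that choice favours a sample apart. A link of HFD male 4's level to its number of sites was not tested.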

How the results depend on the processing

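No member was called for diet, sex or their interaction in any fit run, and the 200 alternative values of the named differences kept their direction and stayed short of the threshold. Over all tiles, diet calls numbered 7, but 17 on untransformed rates, 16 with at least 5 sites per tile and 12 without the sex term. They ranged from 3 to 12 without 1 sample: 4, 3 and 4 without HFD female 2, HFD female 4 and HFD male 3, 3 without RD male 2, 12 without HFD female 3 and 11 without RD female 4. Sex calls numbered 4, but 0 with an offset of 0.01, 1 on untransformed rates, 2 with sites of at least 8 samples and 1 with at least 5 sites. They ranged from 0 to 5 without 1 sample: 0 without either RD male, 1 without HFD female 2, HFD male 2, RD female 2 or RD female 4, and 2 without HFD male 4 or RD female 1. With at least 5 sites, 326 members were tested, of which 25, 19 and 18 had an unadjusted p under 0.05 for diet, sex and interaction (7.67, 5.83 and 5.52%), against 7.54, 5.93 and 5.19% of all tiles with as many sites. Over all 747 members these counts were 47, 43 and 37, and without 1 sample 41 to 52, 32 to 49 and 24 to 46. In these fits 6.79 to 7.74, 4.97 to 6.43 and 4.43 to 6.07% of all tiles passed. The 24 came without RD male 2, where the lone RD son is assumed to vary like the other groups. The mean difference of members between diets was -0.291 to -0.163 points without 1 sample. The number of members was 394 above 90%, 366 within 500 bp, 1436 within 2 kb and 326 with at least 5 sites. The share of 3′ members, whose alternatives were chosen after seeing the data, was 67.8% within 500 bp and 80.1% above 90%. With the replicate block, diet calls numbered 3 and sex calls 0. Same-numbered samples correlated at -0.080 to 0.016 after group means were subtracted, and HFD female 2, for one, correlated best with another number. In groups this small the subtraction ties the values together, so this check cannot decide whether samples share mothers or handling. The causes of these shifts were not tested. The unknown depth limits every single value.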
